A study of Mus musculus with 8 samples.

Results

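The proteins of the cytosolic ribosome are encoded by a set of genes with systematic symbols, Rps for the small subunit and Rpl for the large one. A gene was counted as a member when its mouse symbol was Rps or Rpl followed by a number and at most a short suffix, or was Rpsa, Rplp0, Rplp1 or Rplp2, with symbols marked -ps left out. The rule found 87 members among 55487 genes in the table of CPM (reads assigned to a gene, scaled to a common total of assigned reads in every library). By symbol, 31 fall to the small subunit, 45 to the large subunit and 3 to the stalk, and 8 are paralogs of another member. The annotation classes 4 of the 87 as processed pseudogenes, namely Rps12l1, Rpl6l, Rpl32l and Rps4l, of which Rps4l was tested. The tested 81 were those that reached 0.5 CPM in 4 or more of the 8 libraries. The other 6 were Rpl10l and Rps12l1, which were listed at 0 in all 8 libraries, and Rpl3l, Rpl6l, Rpl32l and Rpl39l, which stayed under 0.5 CPM in most or all libraries.

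RNA came from embryonic mouse cortex at E18.5, with 4 libraries labelled Upf2cKO and 4 control libraries. The genotype of the Upf2cKO libraries was Upf2 fl/fl;Emx1-Cre, in which Emx1-Cre is active in progenitors of the dorsal forebrain, and interneurons, microglia and vessels of the same tissue arise outside that lineage. Controls 1, 3 and 4 were Upf2 fl/fl and control 2 was Upf2 fl/+, and the labels give no control a Cre. Whether embryos shared a litter is not in the labels, so p-values measure only the spread between these samples.

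A ribosome holds, with few exceptions, a single copy of each of its proteins, and the genes are transcribed at similarly high rates in most cells. Their mRNAs start with a run of pyrimidines, the terminal oligopyrimidine (TOP) motif, through which the kinase mTOR and the RNA-binding protein Larp1 control their translation and stability together. A few of them also feed into nonsense-mediated mRNA decay (NMD), the pathway in which Upf2 acts and which removes mRNAs whose stop codon comes too early. In human cells, RPL3 and RPL12 limit their own mRNA through a splice form that NMD degrades. Developing cortex is sensitive to ribosome supply, since its progenitors divide rapidly.

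The sequences below show both features for the genes on which the results turn. In the RefSeq promoters of GRCm38.p6, a TOP-like start was defined as a C within 3 bases of the annotated start followed by at least 4 bases that are each C or T, read on the gene's own strand. It was found in 26 of the 64 members with an entry (40.6%), against 3651 of 27025 genes in all (13.5%). The windows of 30 bases run from 10 bases before the start onward, with the pyrimidine run in capitals. Those of Rpl38, Rps6, Rps18 and Rplp2 belong to genes that fell in Upf2cKO, that of Rps9 to a gene that did not pass the test and that of Rpl12 to a gene that rose.
Rpl38, chr11:114668570-114668599, plus strand: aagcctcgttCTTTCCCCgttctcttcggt
Rps6, chr4:86857348-86857377, minus strand: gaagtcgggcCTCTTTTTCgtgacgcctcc
Rps18, chr17:33955646-33955675, minus strand: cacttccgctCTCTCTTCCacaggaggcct
Rplp2, chr7:141447641-141447670, plus strand: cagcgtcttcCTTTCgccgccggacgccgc
Rps9, chr7:3704031-3704060, plus strand: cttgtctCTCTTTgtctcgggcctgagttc
Rpl12, chr2:32961702-32961731, plus strand: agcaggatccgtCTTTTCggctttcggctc

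Of the 87 members, 19 have an annotated transcript of the NMD class (GENCODE M21, GRCm38), 25 transcripts in all. Their stop codon lies 52 to 857 bases upstream of the last exon junction, with a median of 161 bases. The last 30 bases of the reading frame of such transcripts are given for Rpl12, which rose, and for Rpl3 and Rps9, abundant members that did not pass the test, with the stop codon in capitals.
Rpl12-201, 358 bases from stop to last junction: gggtctgtctccgaagaaagttggcgaTGA
Rpl3-205, 138 bases from stop to last junction: gcccctcccccaactgtgctctgctccTGA
Rps9-210, 161 bases from stop to last junction: cgccaacgtcacattagcctttggagcTGA

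Ribosomal protein mRNAs were lower in Upf2cKO cortex across both subunits and the stalk, each by a modest amount. Of the 81 tested members, 68 fell (84.0%) and 3 rose (3.7%), while among all 16573 genes tested 26.3% fell, 36.7% rose and 63.0% did either. The median log2 change was -0.42 in the members, a 1.34-fold lower level, and 0.04 over all genes tested. The interquartile range of the members ran from -0.49 to -0.32. The falls that passed the test ran from 1.13-fold, for Rpl7a, to 1.61-fold, for Rpl39. In 67 members every Upf2cKO library lay below every control library, a pattern seen in 22.3% of all genes tested, and in 3 members every Upf2cKO library lay above, against 34.3% of all genes.

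**Figure D1:**
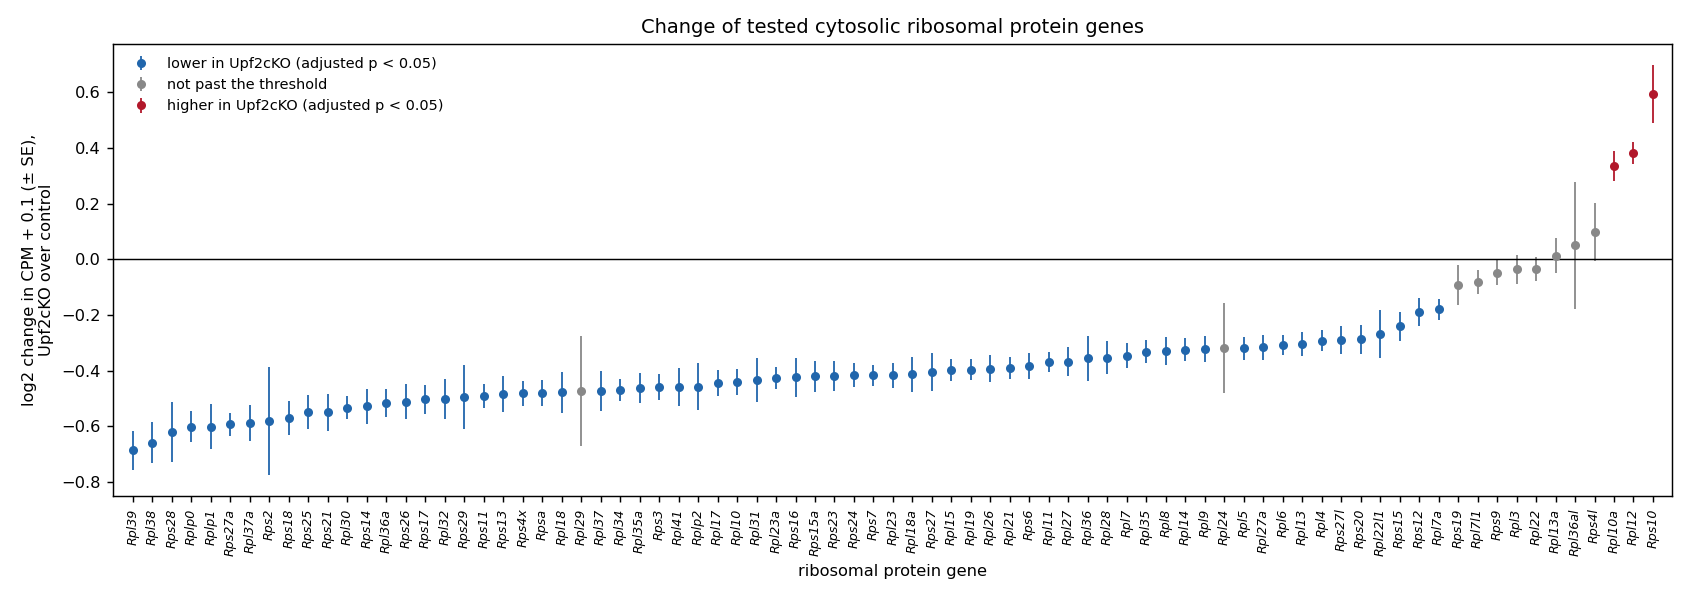
Log2 change of the tested ribosomal protein genes reported here, Upf2cKO over control on the log2(CPM + 0.1) scale, with the standard error of the limma fit as a bar, ordered from the largest fall to the largest rise and coloured by the outcome of the test. Most lie below zero, and Rps10, Rpl12 and Rpl10a are the genes that passed the test above it.

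Together the members took 2.35 ± 0.0433% of assigned reads in Upf2cKO and 3.06 ± 0.168% in controls (SD, n = 4 each). By library, the summed level was 23083, 23566, 24062 and 23239 CPM in Upf2cKO 1 to 4, against 29371, 30990.0, 29183 and 32781 CPM in controls 1 to 4. The groups did not overlap, and the spread was wider among controls, where control 4 was highest. The ratio of the means was 0.768 on CPM and 0.784 on the deposited TPM, which also divides by gene length. Measured against the control mean of each gene, the median member stood at a log2 ratio of -0.43, -0.41, -0.38 and -0.41 in Upf2cKO 1 to 4 and at -0.04, 0.02, -0.07 and 0.10 in controls 1 to 4. Upf2cKO libraries thus resembled each other in the size of the shift. In each of them 71 to 76 of 81 members lay below the control mean, against 60, 27, 70 and 3 in controls 1 to 4. By that count alone, control 3 stood close to Upf2cKO 3. In these bulk samples, fewer cells of a type and less RNA per cell cannot be told apart.

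**Figure D2:**
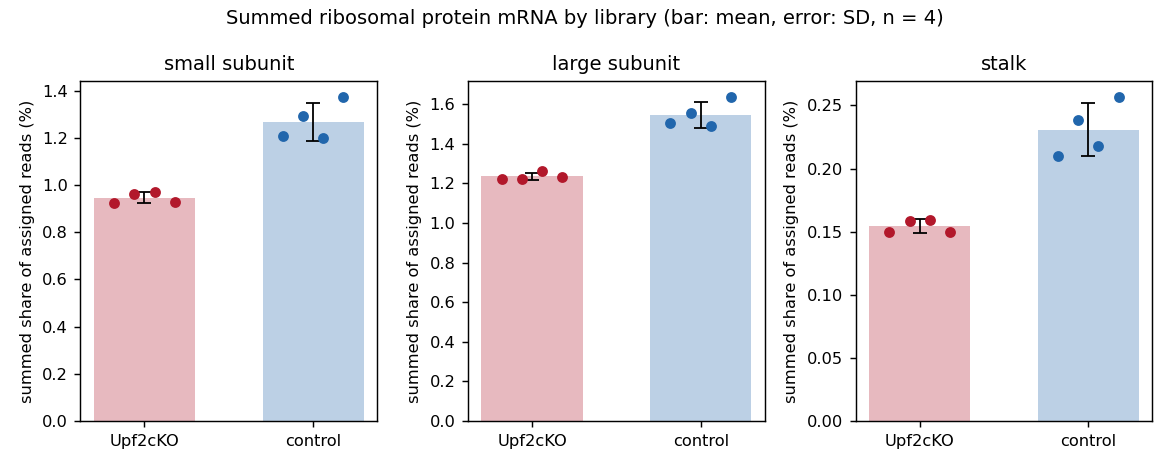
Summed share of assigned reads, in percent, for small-subunit, large-subunit and stalk genes in each library (points), with the mean (bar) and SD of the 4 libraries per group. The Upf2cKO libraries lie close together and below every control library in each panel.

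The small subunit, which binds the mRNA and decodes it, had 27 of 30 tested members lower, 1 higher and 2 that did not pass, with a median log2 change of -0.47. Its genes summed to 9462 ± 239 CPM in Upf2cKO and 12670.0 ± 816 CPM in controls (SD, n = 4 each), a 1.34-fold lower level. Rpsa, which is also known as the laminin receptor, had 985, 959, 965 and 949 CPM in Upf2cKO and 1288, 1362, 1295 and 1443 CPM in controls. The groups lay far apart, with a log2 change of -0.48 ± 0.05 (SE; limma adjusted p = 7.12e-06). Rps27a, made as a fusion with ubiquitin, had 214, 210.4, 226 and 225 CPM in Upf2cKO and 327, 337, 316 and 342 CPM in controls. Its log2 change was -0.59 ± 0.04 (limma adjusted p = 5.08e-07), and it overlaps Clhc1 on the other strand, which averaged 6.38 CPM in Upf2cKO and 0.125 CPM in controls. Rps28 had 135, 176, 177 and 151 CPM in Upf2cKO and 225, 262, 210.3 and 285 CPM in controls, with the largest fall of the subunit (-0.62 ± 0.11; limma adjusted p = 5.55e-04). Its libraries were more spread than those of Rpsa, but the groups did not overlap.

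Rps6, the protein phosphorylated by the S6 kinases, had 309.7, 274, 279 and 299.6 CPM in Upf2cKO and 362, 378, 384 and 391 CPM in controls (log2 change -0.38 ± 0.05; limma adjusted p = 4.43e-05). Rps4x, encoded on the X chromosome, had 478, 447, 463 and 482 CPM in Upf2cKO and 654, 647, 622 and 689 CPM in controls (-0.48 ± 0.04; limma adjusted p = 4.08e-06). Neither gene had overlapping groups. Rps18 and Rps21 fell by 0.57 and 0.55 on the log2 scale. At the other end, the falls were small for Rps12 (-0.19), Rps15 (-0.24), whose protein is needed in yeast and human cells for nuclear export of the small subunit, and Rps20 (-0.29). Rps12 had 412, 437, 429 and 413 CPM in Upf2cKO and 445, 502, 465 and 517 CPM in controls (limma adjusted p = 8.34e-03). That call was lost on TPM (limma adjusted p = 0.0504) and without control 4 and Upf2cKO 4 together (limma adjusted p = 0.0526).

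Rps2 was the most variable abundant gene of the small subunit, with 333, 476, 397 and 279.8 CPM in Upf2cKO and 384, 662, 509 and 681 CPM in controls. The groups overlapped, and the fall of 0.58 ± 0.20 passed the test (limma adjusted p = 0.0236). It did not pass without control 2 (limma adjusted p = 0.0699), control 4 (0.0707), Upf2cKO 4 (0.0703), or without control 4 and Upf2cKO 4 together, where the log2 change was -0.35 (0.164). Rps19, the gene most often mutated in human Diamond-Blackfan anaemia, had 214 ± 13.2 CPM in Upf2cKO and 228 ± 22.1 CPM in controls (SD, n = 4 each; log2 change -0.09 ± 0.07, limma adjusted p = 0.276), and passed as lower without control 3 (-0.16, limma adjusted p = 0.0385).

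The large subunit, which forms the peptide bond, had 36 of 43 tested members lower, 2 higher and 5 that did not pass, with a median log2 change of -0.39. Its genes summed to 12350.0 ± 186 CPM in Upf2cKO and 15460.0 ± 656 CPM in controls (SD, n = 4 each), a 1.252-fold lower level. The largest falls were in the genes of a pair of very small proteins. Rpl39, which lines the exit tunnel, had 105, 116, 118 and 119 CPM in Upf2cKO and 188, 184, 162 and 206 CPM in controls (-0.69 ± 0.07; limma adjusted p = 1.01e-05). Rpl38, required in mouse embryos for translation of certain Hox mRNAs, had 127, 136, 144 and 129.6 CPM in Upf2cKO and 200.4, 221, 188 and 241 CPM in controls (-0.66 ± 0.07; limma adjusted p = 2.16e-05). Both genes had every Upf2cKO library below every control library. Rpl37a, Rpl30, Rpl36a and Rpl32 followed, with falls of 0.59, 0.53, 0.52 and 0.50 on the log2 scale.

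The smallest falls of the subunit that passed the test were in Rpl7a, Rpl4, Rpl13 and Rpl6. Rpl7a had 529, 510.5, 519 and 507 CPM in Upf2cKO and 568, 592, 572 and 607 CPM in controls (-0.18 ± 0.04; limma adjusted p = 1.73e-03). Its groups did not overlap although the difference was small. Rpl10, which joins late and is needed before the subunits can join, had 521, 520.2, 539.6 and 547 CPM in Upf2cKO and 705, 726, 681 and 779 CPM in controls (-0.44 ± 0.05). Rpl7 had 448, 415, 436 and 474 CPM in Upf2cKO and 561, 549, 577 and 564 CPM in controls (-0.35 ± 0.05). Both fell clear of the controls (limma adjusted p = 1.50e-05 for Rpl10 and 6.43e-05 for Rpl7).

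The balance of the subunits was described in 2 ways. The median TPM of small-subunit genes, divided by that of large-subunit genes, was 0.955, 1.06, 0.978 and 1.05 in Upf2cKO 1 to 4 and 1.12, 1.09, 1.13 and 1.14 in controls 1 to 4. The groups did not overlap on this ratio. The same ratio of summed TPM was 0.748, 0.780, 0.754 and 0.746 in Upf2cKO 1 to 4 and 0.762, 0.797, 0.778 and 0.801 in controls 1 to 4, and on it the groups overlapped. No test was made of either.

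The stalk, the arm of the large subunit that recruits the elongation factors, fell in all 3 of its genes. Rplp0, its anchor, had 829, 849, 842 and 829.8 CPM in Upf2cKO and 1144, 1301, 1264 and 1384 CPM in controls (-0.60 ± 0.06; limma adjusted p = 5.21e-06). Rplp1 had 418, 442, 457 and 391 CPM in Upf2cKO and 618, 677, 563 and 739.6 CPM in controls (-0.60 ± 0.08; limma adjusted p = 8.14e-05). Rplp2 had 251, 295, 296 and 277 CPM in Upf2cKO and 339, 407, 355 and 441 CPM in controls (-0.46 ± 0.09; limma adjusted p = 7.85e-04). No stalk gene had overlapping groups. Their sum was 1544 ± 53.8 CPM in Upf2cKO and 2308 ± 209 CPM in controls (SD, n = 4 each), a 1.495-fold lower level.

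Rpl12 and Rpl10a moved against the rest of the large subunit. Rpl12, which sits at the base of the stalk, lies at chr2:32961559-32965345 on the plus strand of GRCm38 and had 475, 512, 511 and 502 CPM in Upf2cKO, against 372, 392, 381 and 389 CPM in controls. All Upf2cKO libraries exceeded all controls, by 0.38 ± 0.04 on the log2 scale (limma adjusted p = 1.00e-05). Rpl10a, the protein of the mobile L1 stalk that lies by the exiting tRNA, lies at chr17:28328471-28331033 on the plus strand and had 298.9, 300.2, 318 and 279 CPM in Upf2cKO, against 231, 243, 219.7 and 253 CPM in controls. Here too the groups were separate (0.34 ± 0.05; limma adjusted p = 2.82e-04). All 3 members that rose, Rps10 included, overlap another gene on the opposite strand, as do 16 members that fell, and none of the 56 tested members without an overlap rose. The partner of Rpl12, Lrsam1, averaged 73.6 ± 4.07 CPM in Upf2cKO and 27.2 ± 1.04 CPM in controls (SD, n = 4 each; log2 change 1.43, limma adjusted p = 4.33e-09). It lies at chr2:32925216-32961614 on the minus strand and so covers only the first bases of Rpl12. The partner of Rpl10a, CT025652.2, was at 0.23 CPM or less in every library, and that of Rps10, Gm15420, at 0.02 CPM or less. The strand setting of the counting is not known here, and the part of reads from these partners was not tested. Over 17 settings of the analysis, the log2 change ranged from 0.29 to 0.44 for Rpl12 and from 0.25 to 0.40 for Rpl10a.

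**Figure D3:**
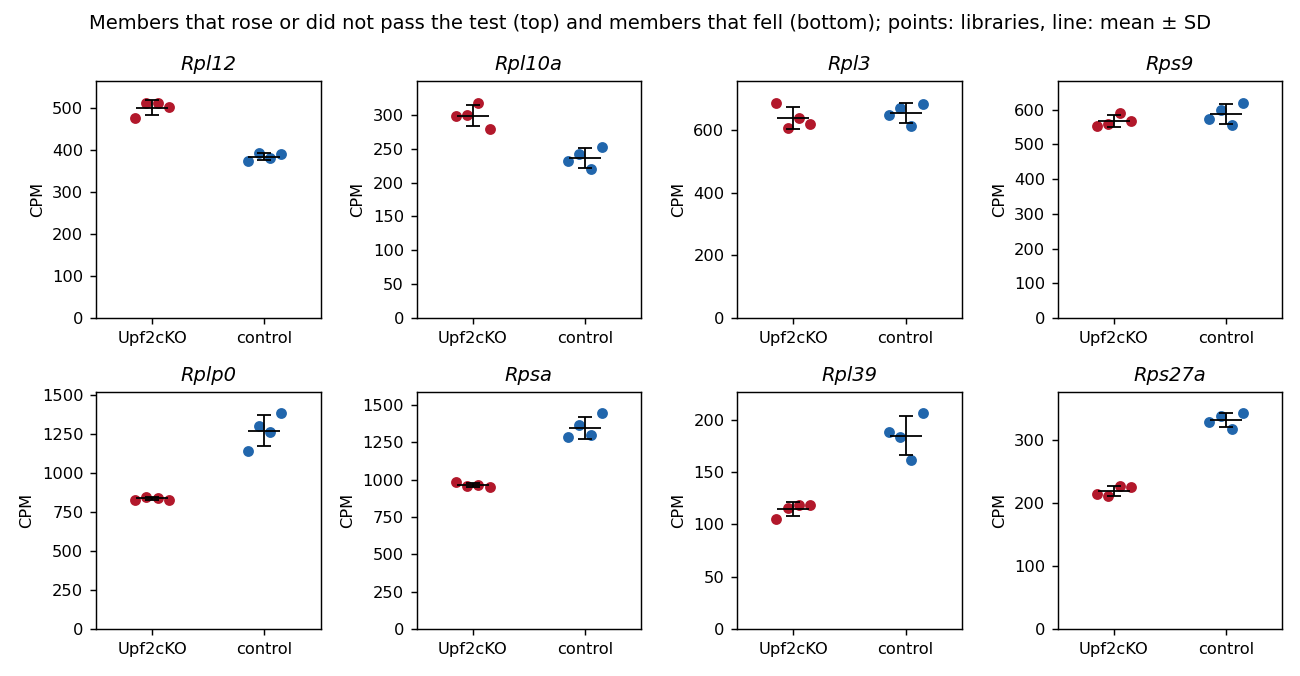
CPM in each library (points) with the mean and SD of 4 libraries per group, on axes that start at 0. The upper row holds Rpl12 and Rpl10a, which rose, and Rpl3 and Rps9, whose groups overlap. The lower row holds Rplp0, Rpsa, Rpl39 and Rps27a, whose Upf2cKO libraries all lie below the controls.

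Some other abundant members did not pass the test. Rpl3, whose protein reaches into the peptidyl transferase centre, had 687, 606, 637 and 619.7 CPM in Upf2cKO and 648, 670.5, 613 and 682 CPM in controls (-0.04 ± 0.05; limma adjusted p = 0.562). Rps9 had 553, 558, 591 and 569 CPM in Upf2cKO and 572, 599, 557 and 621 CPM in controls (-0.05 ± 0.04; limma adjusted p = 0.370). Rpl22 had 309, 305, 328 and 341 CPM in Upf2cKO and 336, 324, 318 and 333 CPM in controls (-0.03 ± 0.04; limma adjusted p = 0.527). The groups of all 3 genes overlapped. After median-of-ratios rescaling, which divides each library by a single factor, Rps9 (-0.14, limma adjusted p = 0.0357) and Rpl22 (-0.12, limma adjusted p = 0.0499) passed as lower.

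Of 6 members listed as candidates for splicing coupled to NMD, Rpl12 and Rpl10a rose, Rpl30 and Rps3 fell, and Rpl3 and Rps9 did not pass, with a median of -0.04. Rpl30 had 102, 93.9, 97.7 and 95.7 CPM in Upf2cKO and 135, 141, 139 and 148 CPM in controls (-0.53 ± 0.04; limma adjusted p = 1.18e-06). Rps3, which lines the mRNA entry channel, had 455, 424, 458 and 439 CPM in Upf2cKO and 619, 603, 574 and 650.1 CPM in controls (-0.46 ± 0.05; limma adjusted p = 1.01e-05). The list was thus split, with changes of both signs. Rpl12, Rpl10a, Rpl3 and Rps9 have an annotated transcript of the NMD class, and Rpl30 and Rps3 have none. Whether this bears on their changes was not tested. Over the annotation, the 19 members with an NMD transcript had 2 higher, 13 lower and 4 that did not pass, with a median of -0.31, and the 62 tested members without one had 1 higher, 55 lower and 6 that did not pass, with a median of -0.42. The deposited values are totals per gene, so the NMD transcripts themselves were not measured.

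Members fell both with and without a TOP-like start. The 25 tested members with such a start had 21 lower and 2 higher (median -0.40), the 35 with an entry but no such start had 29 lower and 1 higher (median -0.42), and the 21 tested members with no entry had 18 lower and none higher (median -0.44). The Rpl12 start printed above carries a pyrimidine run, and no run was found at the starts of Rpl10a. No match says only that these letters are not in this window. The 29 members with a small nucleolar RNA gene inside them had 26 lower and 1 higher, with a median of -0.42, against -0.41 in the others.

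Ribosomal proteins that bind and inhibit the ubiquitin ligase Mdm2, or are otherwise tied to p53, also fell. All 6 genes of that list passed as lower, with a median of -0.38. Of all 81 tested members 84.0% fell, with a median of -0.42, so the list did not stand apart from the members as a whole. Rpl5 had 392, 413, 427 and 427 CPM in Upf2cKO and 501, 514, 524 and 531 CPM in controls (-0.32 ± 0.04; limma adjusted p = 5.44e-05). Rpl11 had 271, 273, 282 and 284 CPM in Upf2cKO and 359, 351, 350.6 and 372 CPM in controls (-0.37 ± 0.04; limma adjusted p = 7.69e-06). Both proteins bind the smallest rRNA of the large subunit, and both genes had separate groups. Rpl23, Rpl26 and Rps7 fell by 0.42, 0.39 and 0.42 on the log2 scale. The remaining gene, Rps27l, is a paralog of Rps27 known as a target of p53, and had 17.9, 17.6, 18.4 and 19.0 CPM in Upf2cKO and 22.0, 23.2, 21.5 and 22.4 CPM in controls (-0.29 ± 0.05; limma adjusted p = 4.14e-04).

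Of the 8 paralogs, 5 were tested, and of these 2 fell and 3 did not pass (median -0.08). Rps27l fell beside its partner Rps27, which had 103, 109, 121 and 124 CPM in Upf2cKO and 165, 144, 141 and 156 CPM in controls (-0.41 ± 0.07; limma adjusted p = 4.02e-04). Rpl22l1 had 25.6, 28.8, 30.5 and 31.7 CPM in Upf2cKO and 39.1, 34.0, 30.4 and 37.2 CPM in controls (-0.27 ± 0.09; limma adjusted p = 0.0202), while its partner Rpl22 did not pass. The Rpl22l1 groups overlapped, and the call was lost on TPM (limma adjusted p = 0.0669), without control 1 (0.0578) and without control 4 (0.0579). Rpl7l1, an assembly factor related to Rpl7, had 66.0, 60.7, 67.3 and 67.1 CPM in Upf2cKO and 70.1, 67.8, 68.6 and 69.5 CPM in controls (-0.08 ± 0.04; limma adjusted p = 0.119), and passed as lower after median-of-ratios rescaling (-0.17, 0.00719). Rps4l had a log2 change of 0.10 ± 0.10 (limma adjusted p = 0.438). Rpl3l, a muscle form of Rpl3, had 0.18, 0.07, 0.04 and 0.08 CPM in Upf2cKO and 0, 0.02, 0.02 and 0.02 CPM in controls. These low values were not tested. The testis form Rpl39l was at 0.14 CPM or less in every library.

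The 4 tested members with the lowest TPM, Rpl36al, Rpl24, Rps10 and Rpl13a, each share exon bases with another annotated gene on the same strand. On TPM, 74 of the 81 tested members averaged at least 100 over the 8 libraries, with a median of 567 TPM. Rplp1 led with 3535 ± 249 TPM in Upf2cKO and 5151 ± 543 TPM in controls (SD, n = 4 each), and Rps15 and Rplp0 came next by their mean over the 8 libraries. Rps10 was low, with 5.79, 7.34, 6.72 and 6.18 CPM in Upf2cKO and 3.70, 4.10, 4.54 and 4.77 CPM in controls. It passed as higher with separate groups (0.60 ± 0.11; limma adjusted p = 5.42e-04), but 20.6% of its exon bases lie in another gene on the same strand, RPS10-NUDT3, which is listed at 0. Rpl13a averaged 18.03 ± 1.35 CPM in Upf2cKO and 17.8 ± 0.590 CPM in controls, Rpl24 0.545 ± 0.139 CPM in Upf2cKO and 0.693 ± 0.0359 CPM in controls, and Rpl36al 0.510 ± 0.128 CPM in Upf2cKO and 0.493 ± 0.154 CPM in controls (SD, n = 4 each). They share 32.8% (Rpl13a), 47.0% (Rpl24) and 24.5% (Rpl36al) of their exon bases in this way. How reads in such overlaps were assigned is not known here, so the levels of these genes and the direction of Rps10 are uncertain. None of Rpl13a, Rpl24 and Rpl36al passed the test, except Rpl24 as lower without Upf2cKO 4 (limma adjusted p = 0.0178) or without control 4 and Upf2cKO 4 (0.0340). Of the 56 tested members with no overlapping gene, 49 fell.

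**Figure D4:**
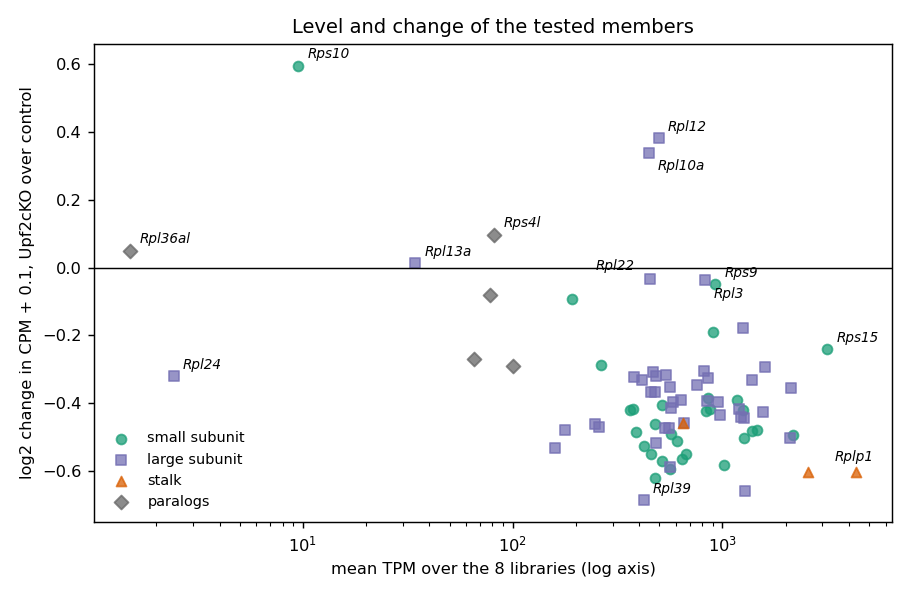
Mean TPM over the 8 libraries (log axis) against the log2 change, Upf2cKO over control, of each tested member, by role. Most members lie at or above 100 TPM and below the zero line, and Rps10, Rpl13a, Rpl24 and Rpl36al stand at the low end.

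Processed copies of these genes are many, and reads may be shared with them. The table holds 300 pseudogenes with such symbols marked -ps, which summed to 56.2 ± 6.12 CPM in Upf2cKO and 68.8 ± 3.1 CPM in controls (SD, n = 4 each). Of the 21 tested, 2 were higher and 6 lower. Rpl29 varied widely between libraries, with 109, 106, 179.6 and 104 CPM in Upf2cKO and 211, 137, 200.4 and 137 CPM in controls (-0.47 ± 0.20; limma adjusted p = 0.0559). It passed as lower without Upf2cKO 3 (limma adjusted p = 4.38e-03), control 2 (0.0390) or control 4 (0.0394), after median-of-ratios rescaling (0.0248), and with the replicate number as a block (3.79e-03).

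The members' change varied with transcript length. Across 80 members, Spearman's rho between the median length of the annotated coding transcripts and the log2 change was 0.34, shorter mRNAs having the larger falls, and across 81 members rho between mean TPM and the change was -0.26. These are descriptions across genes of the same libraries. Of the members under 700 bases, 34 of 40 fell (median -0.46), against 288 of 821 other protein-coding genes of that length (35.1%, with 32.5% higher and a median of -0.02). Of 2453 other protein-coding genes at 100 CPM or more, 37.7% fell and 30.2% rose, with a median of -0.05.

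Other genes known for TOP mRNAs fell as well. All 19 tested genes of that list, elongation and initiation factors among them, passed as lower, with a median of -0.29. Among all genes tested, 26.3% fell. The changes of the list ran from -0.58 to -0.10, some of them close to the threshold (limma adjusted p up to 0.0495). In 16 of the 19 every Upf2cKO library lay below every control library, against 22.3% of all genes tested. By the definition used above, 5 of the 13 listed genes with a promoter entry had a TOP-like start (38.5%), Eef1a1 among them but not Naca or Btf3. Pabpc1, the poly(A)-binding protein, averaged 252 CPM in Upf2cKO and 375 CPM in controls (-0.58; limma adjusted p = 1.26e-06). Eef1a1, the elongation factor that delivers tRNA, fell by 0.44, and Naca and Btf3, which together form the nascent polypeptide-associated complex, fell by 0.43 and 0.39. The ribosomal proteins with symbols outside the rule were lower too: Fau, a fusion gene, averaged 124 CPM in Upf2cKO and 161 CPM in controls (-0.38; limma adjusted p = 4.43e-05), Rps3a1 424 CPM in Upf2cKO and 592 CPM in controls (-0.48), and Rack1, also on the TOP list, 497 CPM in Upf2cKO and 613 CPM in controls (-0.30).

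**Figure D5:**
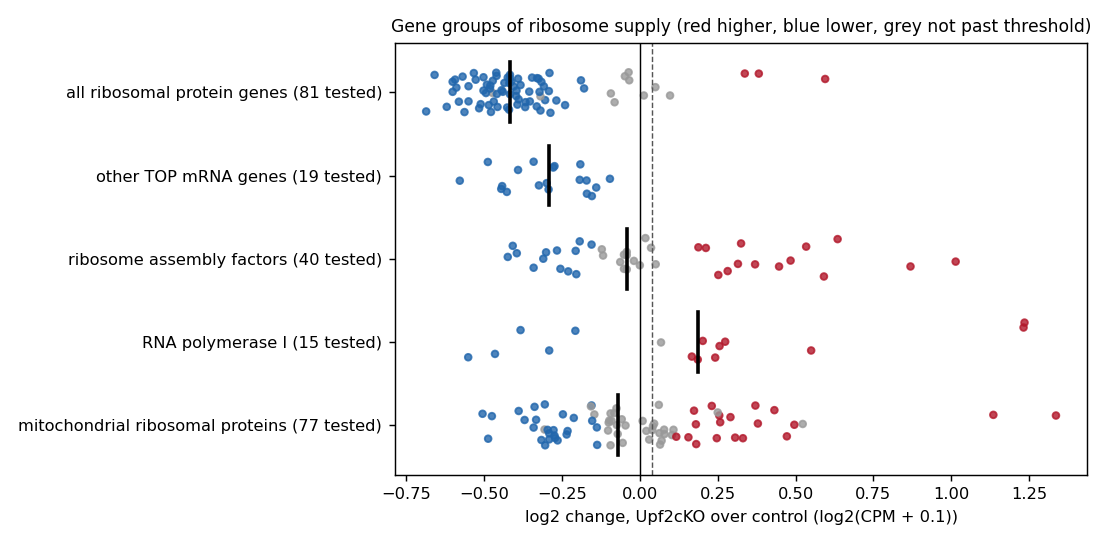
Log2 change, Upf2cKO over control, of each tested gene (points, coloured where they passed the test) in lists related to the ribosome, with the median of each list as a black line and that of all genes tested, 0.04, as a dashed line. The cytosolic ribosomal protein genes and the other TOP genes lie mostly below zero, and the other lists lie on both sides.

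Genes that regulate or build ribosomes moved in both directions, as did all genes tested, of which 36.7% rose and 26.3% fell. Of 11 regulators of TOP mRNAs, 6 rose (54.5%) and 1 fell (9.09%), with a median of 0.25. Mtor averaged 179 CPM in Upf2cKO and 95.5 CPM in controls (1.87-fold higher), the S6 kinase gene Rps6kb2 53.9 CPM in Upf2cKO and 23.0 CPM in controls (2.34-fold), and Eif4ebp1, which restrains cap-dependent translation, 6.89 CPM in Upf2cKO and 2.08 CPM in controls (3.21-fold). Of 15 genes of RNA polymerase I transcription, which makes rRNA, 9 rose (60.0%) and 5 fell (33.3%). The factor subunit Taf1a was 2.35-fold higher and the polymerase subunit Polr1d 1.465-fold lower. Of 40 genes of ribosome assembly and export, 14 rose (35.0%) and 13 fell (32.5%), with a median of -0.04. Nop56, a core protein of box C/D snoRNPs, was at 247 CPM in Upf2cKO and 122 CPM in controls (2.02-fold higher). Of 77 tested genes for mitochondrial ribosomal proteins, 19 rose (24.7%) and 26 fell (33.8%), with a median of -0.07. Mrps10 was 2.52-fold higher and Mrpl23 1.42-fold lower, and the summed level of the list was 2160.0 to 2209 CPM in Upf2cKO and 2106 to 2186 CPM in controls.

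Assigned reads were estimated at 96.6, 115.5, 104.7 and 139.5 M in Upf2cKO 1 to 4 and 101.8, 153.1, 134.0 and 156.0 M in controls 1 to 4. The groups overlapped in depth. Other properties of the libraries moved with the groups. Upf2 averaged 2.31-fold higher in the libraries labelled Upf2cKO, and a total over the whole gene checks neither its deletion nor the labels. The tissue label was checked with 8 markers of cortical excitatory neurons, which summed to 2078 to 2371 CPM in Upf2cKO and 2612 to 2847 CPM in controls; 3 rose and 5 fell. Markers of dividing cells were lower in 7 of 8 genes (summed 282 to 329.9 CPM in Upf2cKO and 415 to 461 CPM in controls), and markers of radial glia in 7 of 10 (906 to 1079 CPM in Upf2cKO and 1344 to 1403 CPM in controls). Erythroid markers were lower in 5 of 5 tested genes (81.8 to 119.9 CPM in Upf2cKO and 144 to 170.2 CPM in controls). Interneuron markers were higher in 6 of 6 (515 to 613 CPM in Upf2cKO and 339 to 382 CPM in controls) and microglia markers in 4 of 6 (83.6 to 124 CPM in Upf2cKO and 33.2 to 45.4 CPM in controls). Endothelial markers went the other way and were lower in 4 of 5 (91.7 to 98.0 CPM in Upf2cKO and 115 to 122 CPM in controls). None of the marker genes of these lists was at 0 in any library. Beside these counts, 36.7% of all genes tested rose and 26.3% fell. The part of these cell types in the fall of the ribosomal protein genes was not tested. The summed choroid plexus markers were highest in Upf2cKO 4 (281 CPM) and control 4 (129 CPM), against at most 30.7 CPM in any other library, and without that pair of libraries 67 members were lower and 3 higher.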

How the data were processed

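RNA-seq of 8 libraries, 4 per group, was used. Per the labels' protocols, a stranded total-RNA kit was used and mRNA was purified. The submitters' processing notes name the build mm10 and the tools DESeq2, STAR 2.7.11a, fastp 0.23.4, MultiQC 1.25 and Picard 3.1.1. Counting tool, strand setting and annotation were not given in the sources used here. Deposited by the authors were a CPM table (reads scaled to a common total of assigned reads) and a TPM table (also divided by gene length), both rounded to 2 decimals. CPM values are shares, and rises in many genes lower the shares of the others. Raw counts were not used here. Depth was estimated from the smallest steps in the low values of short genes, rebuilt from TPM and annotated exon length. Of these values, 99.6% to 99.9% came out whole within 0.15 reads. The step was chosen to make these same values whole, so that share is no separate check of the depth.

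Genes at 0.5 CPM or more in at least 4 libraries were fitted on log2(CPM + 0.1) in R 4.3.3 by limma 3.58.1 (intensity trend, group as the only term, two-sided), with Benjamini-Hochberg adjustment over 16573 genes at a threshold of 0.05. The scale understates changes of low genes. The fit was tested on simulated data. Alternatives were a pseudocount of 1, filters of 2 CPM or none, median-of-ratios rescaling, TPM, a replicate block, each library left out, and both libraries numbered 4 left out. Identifiers were matched to GENCODE M21, which gave 55227 symbols, and promoters came from RefSeq.

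The members and gene lists were chosen with earlier results of these data known. Named genes were Upf2, the stalk, paralog, p53-linked, NMD-coupled and fusion lists, 10 single members, the 6 largest and 6 smallest changes and the 3 highest TPM of each subunit, and up to 3 genes with the smallest adjusted p of each other list. Some items that this rule takes are not reported here. Rps3a1, Rack1, Rpl24, Rpl13a, Rpl29, Rps19, Eef1a1, Rpl6l, Rpl32l, Rps12l1, Lrsam1, CT025652.2, Gm15420 and Clhc1 lie outside it: they were picked after their values had been seen.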

Additional observations from a re-analysis of the deposited data

Results flagged for a closer look

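Among the 4 Upf2cKO libraries, the value of Rpl36al in Upf2cKO 4 stood apart at 0.32 CPM, against 0.55, 0.58 and 0.59 CPM in the other Upf2cKO libraries. Its gap to the nearest library was 0.852 of the group's range, above Dixon's 95% critical value for 4 libraries. In all, 98 groups of libraries were checked and chance alone picks about 1 in 20, so a single case is fewer than chance gives. Rpl36al is one of the members of low value that share exon bases with another annotated gene.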

How the results depend on the processing

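Of the alternatives run, none turned the direction of a named member that passed the test. Scaling moved the size of the shared fall: after median-of-ratios rescaling the members' median log2 change was -0.50 and the ratio of summed CPM 0.723, and on TPM the median was -0.36. The median of all genes tested was -0.04 after rescaling and 0.10 on TPM, against 0.04. The split of all called genes was 5135 higher and 5787 lower after rescaling and 6712 higher and 3368 lower on TPM, against 6082 and 4359. The number of members lower was 72 after rescaling and 66 on TPM. With each library left out in turn, 67 to 69 members were lower and 3 higher, the median ran from -0.43 to -0.38 and the ratio of sums from 0.756 to 0.787. Same-numbered libraries deviated together with correlations of 0.42, 0.05, 0.52 and 0.19, so the numbers were not taken to pair them, and not every library correlated best with its own number. With the replicate number as a block, 69 members were lower and 3 higher. The cause of the lost or gained calls of Rps2, Rps12, Rpl22l1, Rpl29, Rps19, Rpl24, Rps9, Rpl22 and Rpl7l1 was not tested. Depth was ample for the abundant members, while Rpl24, Rpl36al and the untested paralogs had low values. The 4 libraries of each group limit the precision of the rest.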
